A study of Mus musculus with 6 samples.

Results

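Bcl6 and its corepressors form a set of 8 genes chosen by name: Bcl6, Bcl6b, Bcor, Bcorl1, Ncor1, Hdac3, Zbtb16 and Prdm1. All 8 were found by symbol among the 32973 rows of the expression table. BCL6 is a transcriptional repressor that binds DNA through zinc fingers and recruits corepressors through its BTB domain. It is best known from germinal centre B cells, where it holds back the plasma cell regulator BLIMP1, the product of Prdm1. In cultured mouse myoblasts Bcl6 is known to rise on differentiation and to protect the differentiating cells from death.

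The set was measured in 6 RNA sequencing libraries of primary mouse muscle stem cells, the resident progenitors of skeletal muscle, which are marked by Pax7. After sorting by flow cytometry they were grown for 3 days on collagen with serum and basic fibroblast growth factor. The Med23KO group (3 libraries) had the genotype Med23flox/flox::Pax7CreERT2, with loxP-flanked alleles of Med23 and a Cre recombinase driven by Pax7 that needs tamoxifen to act. The Ctrl group (3 libraries) had the genotype Med23flox/flox, so both groups shared the loxP-flanked alleles and the Cre was in the knockout group alone. The labels give "none" as the treatment of both groups and name no inducing agent, age or sex. What Cre does by itself and what losing Med23 does cannot be told apart. The labels do not state whether each library had its own animal or culture. The p-values therefore measure the spread among these 6 libraries, and that spread may be technical.

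Levels are given as FPKM, that is, fragments scaled for the length of the transcript and for the size of the library. Depth is unknown. Med23, which encodes a Mediator subunit, had 5.10, 5.86 and 4.23 FPKM in Med23KO libraries and 10.4, 11.7 and 10.2 FPKM in Ctrl libraries (limma log2 fold change -0.96, adjusted p = 0.0197). That call was lost on leaving out any 1 library other than Med23KO replicate 3, with an adjusted p of up to 0.108. The 8 markers fixed for muscle stem cells and myoblasts were present, with Myod1 between 551 and 1170 FPKM over the 6 libraries. Of these 8, 0 passed at an adjusted p of 0.05, 5 lay above 0 and 3 below (median log2 fold change 0.09). Of 8 B and T cell markers, 4 were listed at 0 in all 6 libraries, among them Ms4a1, Cd3g and Cd8a, and the 8 summed to at most 0.224 FPKM in Med23KO and 0.236 FPKM in Ctrl. Over all genes, 184 were higher and 175 lower in Med23KO among 12336 tested. That split was 363 and 205 after median scaling and 489 and 157 after scaling to equal sums without the very abundant noncoding RNA Rmrp.

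None of the 6 members that could be tested passed the test at an adjusted p of 0.05, against 2.91% of all genes tested (limma on log2(FPKM + 1), Benjamini-Hochberg adjusted over the 12336 genes that averaged 1 FPKM or more). At an unadjusted p under 0.05 there was 1 member, Bcl6b, against 19.7% of all genes. The authors' deposited table also called 1 of the 6, again Bcl6b, by Cuffdiff, against 15.7% of the 13123 genes it tested (7.04% called lower in Med23KO). Zbtb16 and Prdm1 lay below the minimum and have values only.

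**Figure D1:**
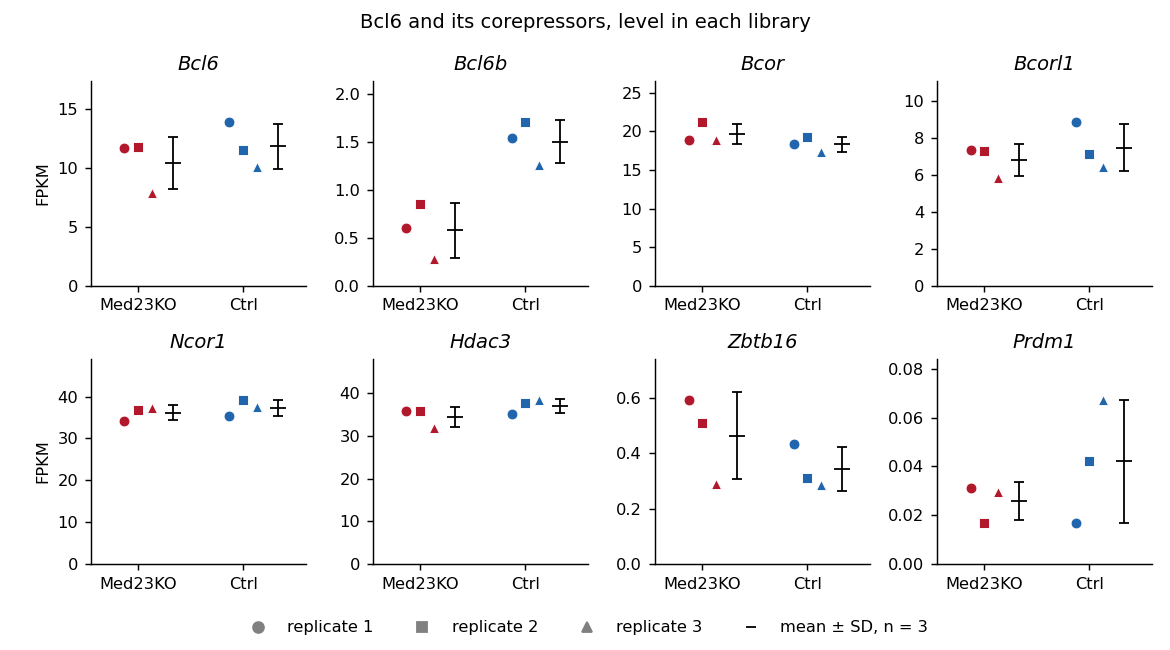
Level of each of the 8 members in FPKM (linear axes from 0, each panel on its own scale) in the 3 Med23KO libraries (red, left) and the 3 Ctrl libraries (blue, right), with the mean ± SD of each group in black. The groups do not overlap in the Bcl6b panel, where Med23KO lies between 0.273 and 0.853 FPKM and Ctrl between 1.26 and 1.70 FPKM, and they overlap in the other 7.

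The repressors come first. Bcl6 (ENSMUSG00000022508.5, mm10 chromosome 16, positions 23965052 to 23988852, minus strand) encodes the BTB zinc finger repressor that gives the set its name. It had 11.7, 11.7 and 7.83 FPKM in Med23KO libraries, against 13.9, 11.5 and 10.1 FPKM in Ctrl libraries. Replicates 1 and 2 of Med23KO lay inside the Ctrl range and replicate 3 below it. The mean was 10.4 ± 2.24 FPKM in Med23KO and 11.8 ± 1.92 FPKM in Ctrl (SD, n = 3 each). The difference was -0.18 with an SE of 0.181 (limma adjusted p = 0.649). All fold changes are on the log2(FPKM + 1) scale, where low genes appear to change less than they do. The 95% interval of Bcl6, -0.60 to 0.24, still allows a fall to 0.659 or a rise to 1.18 times the Ctrl value of FPKM + 1. By exact permutation of the library labels, two-sided, p was 0.6, and the smallest p that 3 against 3 libraries allow is 0.1. Without Med23KO replicate 3 the log2 fold change was -0.0042, and without Ctrl replicate 1 it was -0.07, so the difference in means rests on these 2 libraries.

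Med23KO replicate 3 also had the lowest median over all tested genes, 3.43 on the log2 scale, against 3.59 to 3.61 in the other Med23KO libraries and 3.51 to 3.59 in Ctrl. In all, 6 of the 8 members had their lowest Med23KO value in replicate 3, and 5 of the 8 their lowest Ctrl value in Ctrl replicate 3. Relative to the median of its own library, Bcl6 stood at 0.06, 0.09 and -0.29 (log2) in Med23KO libraries, against 0.30, 0.05 and -0.04 in Ctrl libraries. Bcl6 in Med23KO replicate 3 was thus still the lowest of the 6 after this adjustment.

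Bcl6b (ENSMUSG00000000317.11, mm10 chromosome 11, positions 70224128 to 70229798, minus strand) encodes the closest relative of BCL6, which has the same type of BTB domain and zinc fingers and can form complexes with BCL6. It had 0.599, 0.853 and 0.273 FPKM in Med23KO libraries, against 1.53, 1.70 and 1.26 FPKM in Ctrl libraries. Each Med23KO value was below each Ctrl value, which was also true of 14.7% of all tested genes. The mean was 0.575 ± 0.290 FPKM in Med23KO and 1.50 ± 0.225 FPKM in Ctrl (SD, n = 3 each), or 38.3% of the Ctrl level. In bulk RNA, fewer cells that express a gene and less of its RNA per cell cannot be told apart.

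The log2 fold change of Bcl6b was -0.68 (SE 0.186, 95% interval -1.11 to -0.25), and it missed the threshold with a limma adjusted p of 0.101. The exact permutation test gave p = 0.1, the smallest value possible here. With a pseudocount of 0.1 in place of 1 the log2 fold change was -1.34 (adjusted p = 0.131). Bcl6b was past the threshold under quantile normalization (adjusted p = 0.0494) and with library weights (adjusted p = 0.0223), and the authors' deposited table gave q = 0.000695. Leaving out each library in turn gave adjusted p-values between 0.106 and 0.320 and log2 fold changes between -0.80 and -0.53. Its mean over the 6 libraries, 1.04 FPKM, lay just above the minimum for testing, which it reached through the Ctrl libraries.

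**Figure D2:**
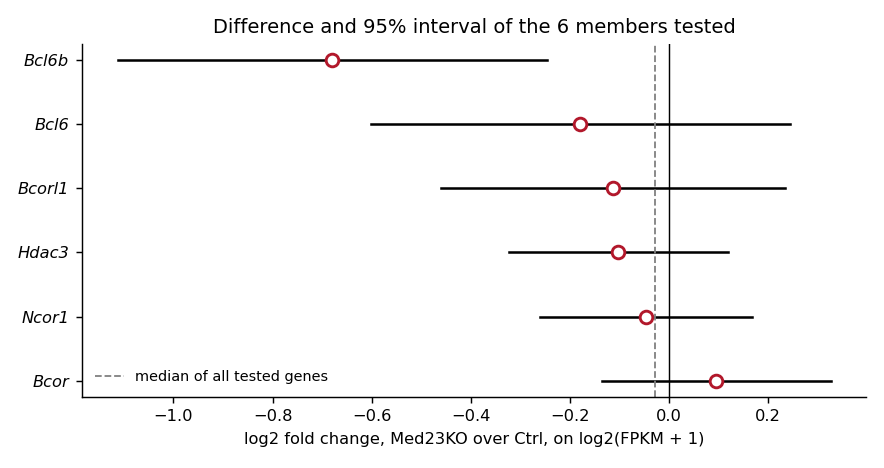
Log2 fold change of Med23KO over Ctrl (circles) with its 95% interval (lines) for the 6 members tested, on the log2(FPKM + 1) scale. Open circles mark adjusted p-values of 0.05 or more, and the dashed line is the median of all tested genes, -0.03. The interval of Bcl6b, -1.11 to -0.25, lies below 0 and the other 5 intervals include 0.

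Bcl6b is known as a gene of endothelial cells, among other types, so endothelial markers were read beside it. The 8 endothelial markers summed to 10.2, 7.28 and 10.1 FPKM in Med23KO libraries, against 10.9, 14.9 and 7.22 FPKM in Ctrl libraries, and the groups overlapped. Of these 8, 4 were tested and 0 passed, and none was at 0 in all 6 libraries. Most of the sum came from Egfl7, Pecam1, Cdh5 and Emcn, the 4 tested. Of the lower markers, Tek, an angiopoietin receptor gene, had 0.595, 0.537 and 0.997 FPKM in Med23KO libraries, against 1.14, 1.20 and 1.20 FPKM in Ctrl libraries, without overlap and in the same direction as Bcl6b. The other 7 markers overlapped. As shares of the Ctrl mean, their Med23KO means were 42.3% for Cldn5, 65.7% for Kdr, 84.4% for Egfl7, 85.4% for Emcn, 86.8% for Cdh5, 100% for Tie1 and 127% for Pecam1. The part of endothelial cells in the Bcl6b values was not tested.

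The ratio of Bcl6 to Bcl6b, both per transcript length, was 19.5, 13.8 and 28.6 in Med23KO libraries, against 9.06, 6.76 and 8.03 in Ctrl libraries. The groups did not overlap (exact permutation p = 0.1, the smallest possible, and adjusted p = 0.4 over 4 ratios compared). The ratio restates the values of both genes given above, and Bcl6 itself had overlapping groups.

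The coding sequences of both genes were compared to see whether reads could be shared between them. The Bcl6 coding sequence has 2121 bases and that of Bcl6b 1422, and they share 0 runs of 30 bases, the longest shared run being 17 bases. The 90 coding bases around that run, which lie in the zinc finger region, are printed because the paralogs are most alike there, with capitals where both have the same base. In each gene the stretch spans an intron (mm10, minus strand, chr16:23968126-23968324 for Bcl6 and chr11:70226553-70226726 for Bcl6b, from GENCODE vM21 transcripts).
Bcl6: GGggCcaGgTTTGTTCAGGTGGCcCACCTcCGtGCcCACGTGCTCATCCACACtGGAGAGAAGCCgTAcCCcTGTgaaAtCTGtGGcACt
Bcl6b: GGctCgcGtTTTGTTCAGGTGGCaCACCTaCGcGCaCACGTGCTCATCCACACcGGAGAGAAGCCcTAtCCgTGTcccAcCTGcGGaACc
Of these 90 bases 70 are the same, 77.8%. The differences are spread over the stretch, so a read of 30 coding bases or more with no mismatch would come from one gene or the other. Untranslated parts of the transcripts were not compared.

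**Figure D3:**
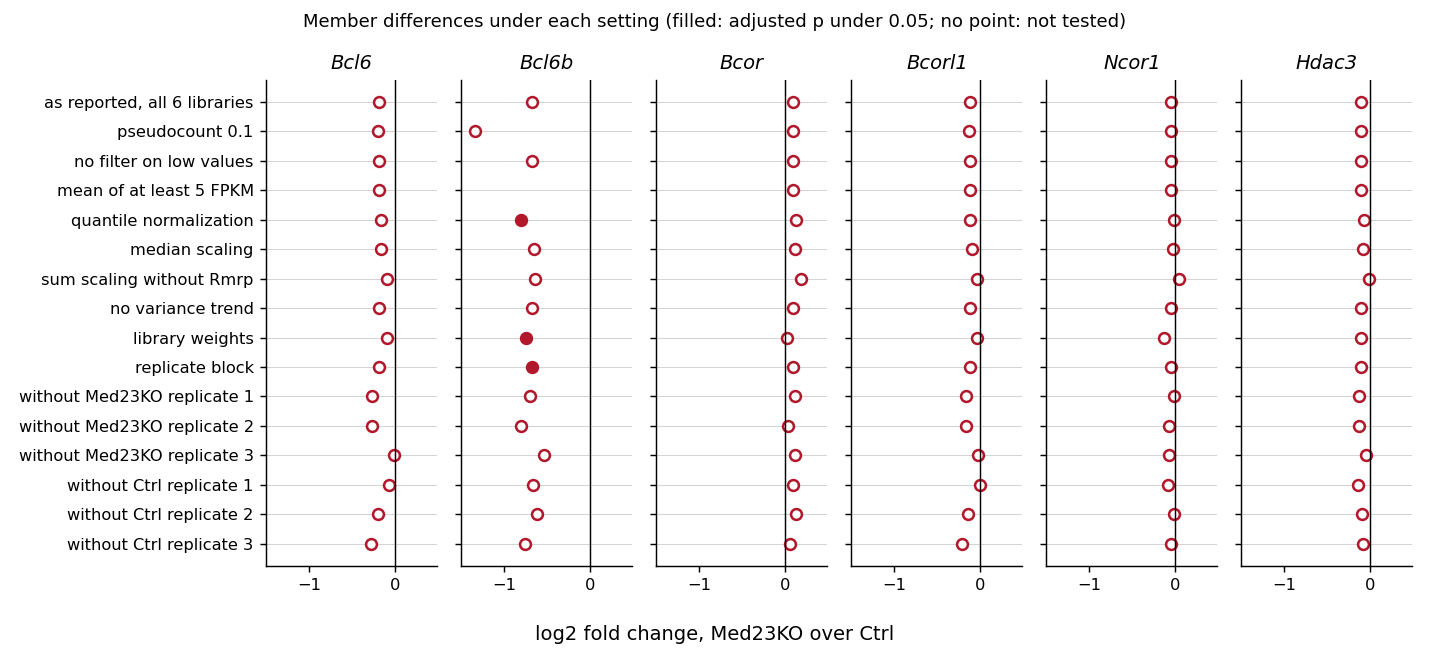
Log2 fold change of Med23KO over Ctrl (x axis) for the 6 members tested under each setting (rows), filled where the adjusted p was under 0.05. Filled points occur for Bcl6b alone, under quantile normalization, library weights and the replicate block, and Bcl6 sits at -0.0042 without Med23KO replicate 3.

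Zbtb16 (ENSMUSG00000066687.5, chromosome 9, positions 48654297 to 48836222, minus strand) encodes PLZF, another BTB zinc finger repressor that uses the same corepressors. It had 0.592, 0.511 and 0.287 FPKM in Med23KO libraries, against 0.433, 0.310 and 0.284 FPKM in Ctrl libraries. The groups overlapped, and the exact permutation test gave p = 0.3. Prdm1 (ENSMUSG00000038151.13, chromosome 10, positions 44437177 to 44528501, minus strand) had 0.0312, 0.0169 and 0.0297 FPKM in Med23KO libraries, against 0.0167, 0.0423 and 0.0672 FPKM in Ctrl libraries. Those values overlapped too (exact permutation p = 0.5), and at such levels a difference between the groups was not detectable. Prdm1 is the textbook target of BCL6, and it was the lowest of the 8 members in both groups.

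Of the corepressor genes, Ncor1, Hdac3 and Bcor lay above Bcl6 in both groups and Bcorl1 lay below it. Bcor (ENSMUSG00000040363.15, chromosome X, positions 12036740 to 12160355, minus strand) encodes the BCL6 corepressor that also belongs to a Polycomb complex. It had 19.0, 21.2 and 18.9 FPKM in Med23KO libraries, against 18.4, 19.3 and 17.4 FPKM in Ctrl libraries. Its groups overlapped, with a fold change of 0.10 on the log2 scale (SE 0.0989, 95% interval -0.14 to 0.33, limma adjusted p = 0.659).

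Bcorl1 (ENSMUSG00000036959.15, chromosome X, positions 48341358 to 48408049, plus strand), the paralog of Bcor, had 7.35, 7.31 and 5.83 FPKM in Med23KO libraries, against 8.88, 7.15 and 6.43 FPKM in Ctrl libraries. The groups overlapped, with a fold change of -0.11 on the log2 scale (SE 0.149, 95% interval -0.46 to 0.23, limma adjusted p = 0.741). The ratio of Bcor to Bcorl1 was 2.58, 2.91 and 3.24 in Med23KO libraries, against 2.07, 2.70 and 2.70 in Ctrl libraries, and these overlapped (exact permutation p = 0.3). Their coding sequences share 0 runs of 30 bases, and the longest shared run has 14.

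Ncor1 (ENSMUSG00000018501.17, chromosome 11, positions 62316426 to 62458541, minus strand) encodes the NCoR scaffold that the BTB domain of BCL6 binds. It had 34.1, 36.9 and 37.3 FPKM in Med23KO libraries, against 35.4, 39.1 and 37.4 FPKM in Ctrl libraries. The groups overlapped, with a fold change of -0.05 on the log2 scale (SE 0.0914, 95% interval -0.26 to 0.17, limma adjusted p = 0.840). With FPKM scaled to equal sums without Rmrp it was 0.05. Ncor1 overlaps Ttc19 on the opposite strand over 12026 bases, and Bcl6 overlaps the gene model Gm37419 over 114 bases. Whether the authors counted by strand is not given in the sources used here, so these levels are uncertain to that extent.

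Hdac3 (ENSMUSG00000024454.16, chromosome 18, positions 37935844 to 37955016, minus strand) encodes the histone deacetylase that NCoR complexes carry. It had 35.8, 35.8 and 31.8 FPKM in Med23KO libraries, against 35.2, 37.6 and 38.4 FPKM in Ctrl libraries. Replicate 3 of Med23KO was again the lowest, and the groups overlapped (log2 fold change -0.10, SE 0.0945, 95% interval -0.32 to 0.12, limma adjusted p = 0.617).

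Per transcript length, the members had the same order in both groups: Ncor1, Hdac3, Bcor, Bcl6, Bcorl1, Bcl6b, Zbtb16 and Prdm1. Ncor1 and Hdac3 overlapped in both groups, at 36.1 ± 1.78 and 34.5 ± 2.31 FPKM in Med23KO and at 37.3 ± 1.88 and 37.1 ± 1.63 FPKM in Ctrl (SD, n = 3). Bcl6b overlapped Zbtb16 in Med23KO, at 0.575 ± 0.290 and 0.463 ± 0.158 FPKM, and did not in Ctrl, at 1.50 ± 0.225 and 0.343 ± 0.0796 FPKM. Every other neighbouring pair was apart in both groups. Over the 6 libraries Ncor1 lay at percentile 90.3 of the genes above 0, with Hdac3 just below it, Bcl6 at percentile 70.3 and Prdm1 at percentile 13.5.

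Among 8801 other genes averaging 5 FPKM or more, those whose log2 levels over the 6 libraries were most like Bcl6 were Tnpo2, Micall1, Pi4ka, Slc27a1 and Dlg5, in that order. Their Pearson correlations with Bcl6 lay between 0.994 and 0.999 over 6 libraries. The values of all genes share the scaling of each library, and these 5 were picked as the highest of 8801. Micall1 had 9.95, 9.96 and 7.48 FPKM in Med23KO libraries, against 11.4, 9.85 and 9.22 FPKM in Ctrl libraries, so it too was lowest in Med23KO replicate 3 and highest in Ctrl replicate 1.

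BCL6 binds sites close to those of STAT proteins, and both BCL6 and STATs are known to act on the Bcl6 gene, so the promoters were searched on both strands for TTCCNNGAA (BCL6 type) and TTCNNNGAA (STAT type). Each match to the first is also a match to the second. RefSeq (GRCm38.p6) gave promoters for 5 of the 8 members; Bcl6b, Hdac3 and Zbtb16 were not among them. Within 250 bases upstream of a start site, the BCL6 type was present in 4.06% and the STAT type in 7.02% of 32851 promoters. Among 8 member promoters, 1 held the BCL6 type and 4 the STAT type, all of them promoters of Bcl6 and Bcor. The 2 Bcor promoters share 1 match, 113 and 104 bases upstream of their starts. Neither type was present in the 21 promoters matched to the listed BCL6 target genes. The windows below, all on the minus strand, show each distinct match of Bcl6 and Bcor in capitals with 25 bases on each side. They are chr16:23988937-23988995, before the first Bcl6 start, chr16:23981418-23981476, chr16:23981372-23981430 and chr16:23981338-23981396, before its internal start, and chrX:12160426-12160484 before Bcor.
Bcl6 first start, 118 bases upstream, STAT type: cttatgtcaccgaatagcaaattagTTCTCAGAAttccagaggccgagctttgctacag
Bcl6 internal start, 168 bases upstream, BCL6 type: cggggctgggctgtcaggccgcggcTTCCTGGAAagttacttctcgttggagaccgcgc
Bcl6 internal start, 122 bases upstream, STAT type: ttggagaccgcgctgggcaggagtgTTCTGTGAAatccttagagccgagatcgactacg
Bcl6 internal start, 88 bases upstream, BCL6 type: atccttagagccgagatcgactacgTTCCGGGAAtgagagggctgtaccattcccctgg
Bcor, STAT type: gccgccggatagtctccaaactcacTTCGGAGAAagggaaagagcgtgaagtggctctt
A match describes these letters and does not show that a factor binds there.

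Genes that regulate Bcl6 were read next. Of 15 listed regulators, among them STATs, FOXO factors and suppressors of cytokine signalling, 11 were tested and 0 passed in either direction. The median log2 fold change was -0.02, against -0.03 over all tested genes. Stat5a, whose product is known to repress Bcl6 in lymphocytes, had 14.7, 12.5 and 7.19 FPKM in Med23KO libraries, against 8.37, 7.31 and 4.72 FPKM in Ctrl libraries. Med23KO replicate 3 lay inside the Ctrl range, with a fold change of 0.66 on the log2 scale (SE 0.276, limma adjusted p = 0.246). Without Med23KO replicate 3 it was 0.93 (adjusted p = 0.0351), past the threshold. That fit called 1144 of the 12336 genes tested, against 359 with all 6 libraries. Without any other 1 library the adjusted p of Stat5a lay between 0.249 and 0.553. Stat3, known to activate Bcl6 in T cells, had 33.2, 25.3 and 21.5 FPKM in Med23KO libraries, against 19.9, 21.4 and 17.9 FPKM in Ctrl libraries (adjusted p = 0.235). Foxo4 averaged 29.4 ± 9.59 FPKM in Med23KO and 18.6 ± 2.49 FPKM in Ctrl (adjusted p = 0.240, and 0.0128 without Med23KO replicate 3). Without any other 1 library its adjusted p lay between 0.316 and 0.551. Foxo1, which activates Bcl6 in B cells, averaged 24.8 ± 1.93 FPKM in Med23KO and 26.2 ± 2.85 FPKM in Ctrl (SD, n = 3 each).

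The partners of the corepressors did not pass in the unweighted fit used for the members. Of the NCoR complex partners 0 of 5 tested passed, with a median log2 fold change of -0.02. Tbl1xr1, a subunit that turns over the complex, had 28.4, 30.4 and 30.3 FPKM in Med23KO libraries, against 24.7, 23.7 and 23.8 FPKM in Ctrl libraries (log2 fold change 0.29, limma adjusted p = 0.125, and 0.0464 with library weights). Its groups did not overlap, which was true in the direction of a rise for 10% of all tested genes.

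Of the Polycomb partners of BCOR 0 of 9 tested passed, with a median of 0.05, and -0.01 without Ctrl replicate 1. Yaf2 and Rybp, a related pair of subunits, averaged 23.1 ± 2.49 and 11.5 ± 1.55 FPKM in Med23KO, against 17.7 ± 0.741 and 8.84 ± 0.804 FPKM in Ctrl (SD, n = 3 each). Neither passed, with limma adjusted p-values of 0.125 and 0.196. With library weights Yaf2 passed (adjusted p = 0.0384), as did Pcgf1, another of these partners. Of 17 other corepressor genes, 16 were tested and 0 passed, with a median of -0.10 and 14 of 16 below 0, as were 6770 of all 12336 genes. With equal sums without Rmrp that median was -0.01, against 0.06 over all tested genes. Mta2, a subunit of the NuRD deacetylase complex, averaged 51.6 ± 1.27 FPKM in Med23KO and 59.8 ± 2.79 FPKM in Ctrl (adjusted p = 0.235). The class IIa deacetylase gene Hdac5 had 49.5, 42.7 and 23.3 FPKM in Med23KO libraries, against 31.8, 24.6 and 18.5 FPKM in Ctrl libraries (adjusted p = 0.346, and 0.0371 without Med23KO replicate 3). Leaving out any other 1 library gave Hdac5 adjusted p-values between 0.281 and 0.669. Zbtb17, which encodes the BCL6 partner MIZ1, had 8.75, 6.93 and 5.66 FPKM in Med23KO libraries, against 9.56, 7.91 and 7.23 FPKM in Ctrl libraries.

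Relatives of the members did not pass in that fit either. Of 29 other BTB zinc finger genes, 28 were tested and 0 passed, with a median of -0.05. Zbtb18 averaged 27.4 ± 1.72 FPKM in Med23KO and 20.8 ± 2.19 FPKM in Ctrl (limma adjusted p = 0.113), and Zbtb14 averaged 8.29 ± 0.488 and 10.5 ± 0.484 FPKM (adjusted p = 0.153; SD, n = 3 each). Zbtb18 was past the threshold with FPKM scaled to equal sums without Rmrp (adjusted p = 0.0377) and with library weights (adjusted p = 0.0208). Of 10 genes of the PRDM family other than Prdm1, 5 were tested and 0 passed. The smallest p belonged to Prdm4, at 12.2 ± 0.461 FPKM in Med23KO and 15.5 ± 0.912 FPKM in Ctrl (adjusted p = 0.132, and 0.0381 with library weights).

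**Figure D4:**
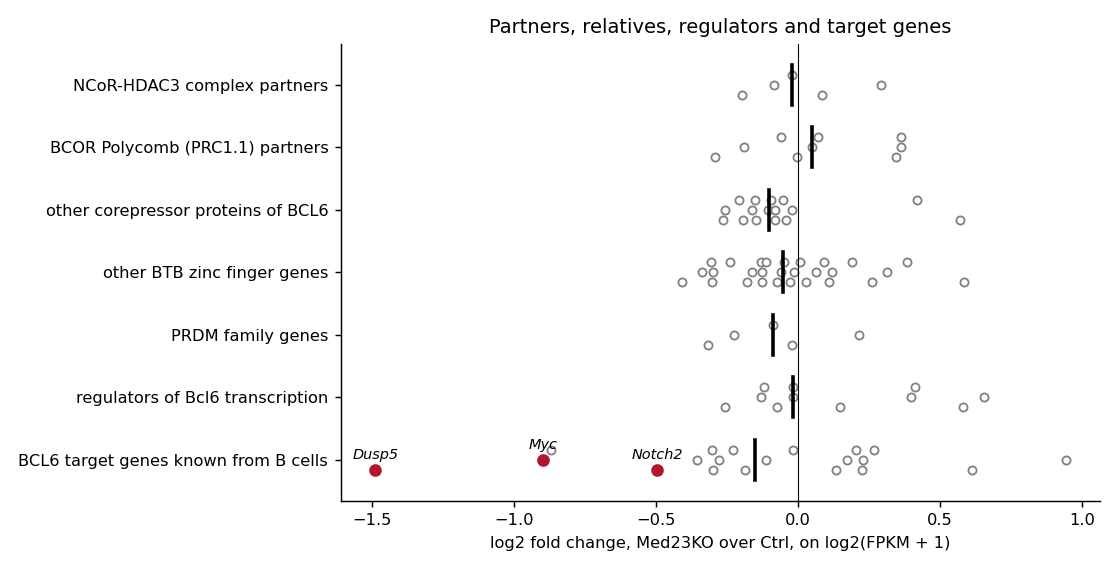
Log2 fold change of Med23KO over Ctrl (x axis, log2(FPKM + 1) scale) for each tested gene of 7 lists (rows), with the list median as a black bar and genes at an adjusted p under 0.05 filled in red. The filled genes are Dusp5, Myc and Notch2, all lower in Med23KO and all in the list of target genes.

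Of 24 genes listed as targets of BCL6 in B cells, 20 were tested, 3 fell and 0 rose, against 1.42% lower and 1.49% higher over all tested genes. Of the 20, 8 lay above 0, and their median was -0.15 (log2). BCL6 represses such genes in B cells, where losing it raises them. The list was drawn with the falls of Dusp5 and Myc in these data already known, and the place of Dusp5 on it is the least certain, so the count is a description.

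Dusp5, a phosphatase gene of the ERK pathway, had 6.35, 5.86 and 6.77 FPKM in Med23KO libraries, against 21.2, 21.7 and 16.2 FPKM in Ctrl libraries (log2 fold change -1.49, SE 0.137, limma adjusted p = 0.00676). Its call was lost without Med23KO replicate 2 (adjusted p = 0.0576). Myc, the growth regulator, had 23.5, 21.5 and 16.3 FPKM in Med23KO libraries, against 45.1, 37.8 and 33.4 FPKM in Ctrl libraries (log2 fold change -0.90, adjusted p = 0.0368). Notch2, a Notch receptor gene, had 23.5, 22.9 and 23.8 FPKM in Med23KO libraries, against 32.6, 36.1 and 31.7 FPKM in Ctrl libraries (log2 fold change -0.50, adjusted p = 0.0378). In all 3 genes each Med23KO value was below each Ctrl value. That was true of 7 of the 20 tested targets, against 14.7% of all tested genes. The 7 include Dusp5 and Myc, whose falls were known when the list was drawn, so this count too is a description. In 1 of the 20 each Med23KO value was above each Ctrl value, against 10% of all tested genes. The calls of Myc and Notch2 were lost without any of the other 5 libraries in turn and remained without Med23KO replicate 3, with adjusted p-values up to 0.162 and 0.199. Both were also lost without a filter on low values (0.0761 and 0.0546), and Notch2 with equal sums without Rmrp (0.0719) and without a variance trend (0.0541).

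Target genes of the cell cycle did not pass. Cdkn1a, which encodes the CDK inhibitor p21, had 210, 222 and 160 FPKM in Med23KO libraries, against 206, 173 and 131 FPKM in Ctrl libraries (limma adjusted p = 0.584). Ccnd2, a D-type cyclin gene, averaged 10.6 ± 1.03 FPKM in Med23KO and 11.6 ± 1.19 FPKM in Ctrl (adjusted p = 0.662; SD, n = 3 each). The groups overlapped for both genes.

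Bcl6 was also set beside the state of the cultures. Of 10 markers of differentiating muscle cells 9 were tested, 3 rose (Mef2c, Actn2 and the fusion gene Mymx) and 0 fell, against 1.49% called higher and 1.42% called lower over all tested genes. Mymx and Actn2 averaged 0.363 and 0.804 FPKM in Ctrl and reached the minimum for testing through the Med23KO libraries. The 10 markers summed to between 215 and 242 FPKM in Med23KO libraries, against 78.0 to 139 FPKM in Ctrl libraries, with no overlap. Myog, which marks entry into differentiation, had 84.5, 89.4 and 76.0 FPKM in Med23KO libraries, against 43.8, 32.2 and 14.6 FPKM in Ctrl libraries (limma adjusted p = 0.0609). Myog passed under quantile normalization (0.0434), median scaling (0.0387), equal sums without Rmrp (0.0309) and library weights (0.0212). It missed with a pseudocount of 0.1 (0.0641), a minimum mean of 5 FPKM (0.0595), no variance trend (0.0730) and no filter on low values (0.122). Leaving out 1 library gave it adjusted p-values between 0.0375 and 0.236. Of the 9 tested, 7 were higher in each Med23KO library than in any Ctrl library, against 10% of all tested genes, and Ttn and Tnnt1 overlapped, as did Bcl6. The markers of fibro-adipogenic progenitors summed to between 238 and 371 FPKM in Med23KO, against 172 to 231 FPKM in Ctrl, with no overlap. Most of that sum was Col3a1, at 138 to 286 FPKM over the 6 libraries. Of the 7 tested, 0 passed the threshold. All 7 lay above 0, as did 5566 of all 12336 genes, with a median log2 fold change of 0.56. Of the 7, 3 were higher in Med23KO without overlap, against 10% of all tested genes. Markers of macrophages and other white blood cells summed to between 12.0 and 40.6 FPKM in Med23KO, against 13.4 to 28.1 FPKM in Ctrl, mostly from Lyz2, at 9.40 to 35.0 FPKM. What these cell types contribute to the levels of the members was not tested.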

How the data were processed

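Poly(A) RNA of 3 Med23KO and 3 Ctrl libraries was sequenced from strand-specific libraries, per the labels' protocols. FastQC, cutadapt, STAR, Cuffdiff and the mm10 build are named, without versions or annotation, in the submitters' processing notes. The authors deposited FPKM per library and, per the file headers, Cuffdiff p-values, q-values and a test statistic, a score that was not used. FPKM are not counts, and steps of low values gave no relative depth: between 3.93% and 35.1% of the low genes of a library pair shared 1 ratio (tolerance 0.03, log2). Of 12368 rows with an Ensembl identifier alone, 12316 matched a symbol, and Mymk, Mymx and Skp1 were found under older names.

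Values were transformed to log2(FPKM + 1), those averaging 1 FPKM or more were kept, and limma 3.58.1 in R 4.3.3 was run with a mean-variance trend and genotype as the only factor, two-sided, with Benjamini-Hochberg adjustment over 12336 genes and a threshold of 0.05. Permutation tests were exact and two-sided (SciPy 1.17.1). The fit was tested on simulated data with known changes. The members and lists were chosen with earlier results of these data known. Named genes were the 8 members, Med23, called list genes (at most 4 a list), otherwise 1 or 2 with the smallest p, 7 genes named whatever their values, and the 5 most like Bcl6; some of these are not reported here. Alternatives covered the pseudocount, filter, scaling, variance model, library weights, a replicate block, each library left out, and the authors' q-values. Coordinates are from GENCODE vM21.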

Additional observations from a re-analysis of the deposited data

How the results depend on the processing

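Of 359 genes called with all 6 libraries, the count became 157 without a filter on low values, 568 with median scaling, 646 with equal sums without Rmrp, 1700 with library weights and 2054 by the authors' q-values, and it ran from 13 (without Med23KO replicate 2) to 1144 (without Med23KO replicate 3) with 1 library left out. The count of members called was 0 of 6. Quantile normalization called 1, Bcl6b (log2 fold change -0.80), with 499 of all 12336 genes called. Library weights also called Bcl6b (-0.74), with 1700 of 12336 genes called, as did the authors' q-values, with 2054 of 13123. In each fit without 1 library the count of members stayed 0, with 13 to 1144 of all 12336 genes called. The count over the 7 lists of partners, relatives, regulators and targets was 3 of 93 tested. It became 1 of 107 without a filter, 10 of 93 with library weights and 19 of 97 by the authors' q-values. With 1 library left out it ran from 0 to 9 of 93. The direction of small differences was not stable: Ncor1 was 0.0486 and Foxo1 0.0202 with equal sums without Rmrp, Ccnd2 was 0.0157 with library weights, and with 1 library left out Bcorl1 ran from -0.20 to 0.0019 and Foxo1 from -0.13 to 0.0107. With equal sums without Rmrp the medians of the NCoR partners (0.07), the other BTB zinc finger genes (0.04) and the regulators of Bcl6 (0.07) lay above 0. The cause was not tested.

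Same-numbered libraries had deviations from their group means that correlated at 0.44, -0.02 and 0.56 for replicates 1, 2 and 3, and Med23KO replicate 2 correlated best with Ctrl replicate 1 (0.34). These correlations cannot decide whether the numbers mark pairs, because the 3 deviations within a group depend on each other. The labels do not say so either, and the fit reported first did not use the numbers. In the same-numbered pairs 35.1%, 25.2% and 15.1% of low genes shared 1 ratio, against 3.93% to 9.50% in the other 12 pairs of libraries. Whether same-numbered libraries were tied was not tested. With the replicate number as a block, 2757 of all 12336 tested genes were called. Among them were 1 of 6 members (Bcl6b, log2 fold change -0.68, limma adjusted p = 0.0289) and 30 of 93 list genes. Of the list genes named above, several missed in the fit reported first and passed with the block (adjusted p between 0.00496 and 0.0459). They were Stat5a, Hdac5, Zbtb18, Foxo4, Tbl1xr1, Yaf2, Rybp, Prdm4, Mta2, Stat3 and Zbtb14. Myog did the same (0.00705 with the block). Some of these genes also passed in other fits without the block, as given above. Precision for Bcl6b, Zbtb16 and Prdm1 is limited by their low levels.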
